A study of Mus musculus with 5 samples.

Results

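The interferon-stimulated genes are 39 genes that cells switch on in response to interferons. All 39 were found in the table of read counts from 5 mouse samples labelled CRC (colorectal cancer). They were selected by gene name from 54113 named entries, of which 16133 were tested, and the selection used their CPM (reads per 1000000 counted, scaled by the TMM method) in each library, 4 °C against 30 °C. The values that compare the 2 temperatures are therefore given as a description, with no test of these genes. MC38 cells, a mouse colon carcinoma line, had been inoculated into C57BL/6 mice, and the tumour-bearing mice were kept for 2 weeks at 30 °C (3 tumours, the thermoneutral group) or at 4 °C (2 tumours, the cold group). No transgene, deletion or drug is named for either group, and the study's methods describe young male and female C57BL/6 mice, adapted to a mild cold before the exposure, without giving the age and sex behind each library. The study calls the libraries biological samples, and the labels do not say that each tumour came from its own mouse.

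Interferons bind receptors at the cell surface, whose kinases activate transcription factors, with STAT2 and IRF9 among their subunits. These enter the nucleus and bind a short element in promoters, the interferon-stimulated response element (ISRE). The genes so induced encode sensors of foreign nucleic acid, proteins that block steps of viral growth, and the transcription factors of the pathway itself, so the response can feed its own strength. In tumours and lymphoid organs a low activity of this programme is found without infection.

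The letters of the ISRE were searched in the promoters of these genes because the members share this input. The search used GAAANNGAAA and its reverse complement TTTCNNTTTC, in which N is any base, over 250 bases before and 50 bases from the RefSeq start site on GRCm38.p6. A promoter entry was at hand for 29 of the 39 genes, and 14 of the 29 (48.3%) held a match, against 459 of 11443 genes tested that had an entry (4.01%). Matches may overlap one another. The genes without an entry are Usp18, Dhx58, Zbp1, Mx1, Mx2, Rtp4, Parp9, Parp14, Ifi27l2a and Tor3a. The stretches below, written 5′ to 3′ along each gene, belong to the 6 genes with an upstream match and the largest differences between the groups, and to Ifit3, which was added after its matches had been seen because it resembles Ifit3b. Capitals mark the match.
Rsad2: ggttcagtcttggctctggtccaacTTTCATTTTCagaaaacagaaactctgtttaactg
Isg15: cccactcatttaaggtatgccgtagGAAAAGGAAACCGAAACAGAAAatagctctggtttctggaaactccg
Ifit3b: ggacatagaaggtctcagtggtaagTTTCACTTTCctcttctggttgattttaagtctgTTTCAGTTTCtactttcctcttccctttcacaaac
Ifit3: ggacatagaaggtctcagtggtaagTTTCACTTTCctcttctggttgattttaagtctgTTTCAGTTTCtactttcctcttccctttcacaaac
Ifit1: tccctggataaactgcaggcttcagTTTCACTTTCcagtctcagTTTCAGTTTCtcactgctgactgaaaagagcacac
Trim30a: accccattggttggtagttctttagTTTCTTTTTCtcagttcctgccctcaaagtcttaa
Ifit1bl1: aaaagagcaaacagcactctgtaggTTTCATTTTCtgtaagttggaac
These lie at chr12:26456538-26456597 on the minus strand (Rsad2), chr4:156200850-156200921 on the minus strand (Isg15), chr19:34607744-34607837 on the plus strand (Ifit3b) and chr19:34583348-34583441 on the plus strand (Ifit3). The other stretches are at chr19:34640760-34640838 on the plus strand (Ifit1), chr7:104465195-104465254 on the minus strand (Trim30a) and chr19:34599428-34599475 on the minus strand (Ifit1bl1). Ifit1bl1 has 2 promoter entries, each with a match. The printed stretch belongs to the entry inside the GENCODE gene (chr19:34592891-34601956). The match not printed lies 104 to 95 bases before the start site at the 5′ end of the gene. In Isg15, 3 matches overlapped in a single run. The stretches of Ifit3 and Ifit3b were identical at 94 of 94 bases. Upstream matches lay between 222 and 14 bases before the start site in 10 genes, and in the other 4 (Ddx58, Eif2ak2, Ifih1 and Ifitm3) the match lay within the 50 bases from the start site. In the map of matches by distance, log2 fold changes ran from −1.03 (Rsad2) to 0.29 (Ifit1bl1) for genes with a match. For genes with a promoter entry and no match they ran from −1.27 (Ifi44) to 0.085 (Ifi35). The median log2 fold change was −0.35 over the 14 genes with a match and −0.37 over the 15 with a promoter entry and no match. Of these, 11 of the 14 and 14 of the 15 were lower at 4 °C. A link between match and difference was not tested.

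**Figure D1:**
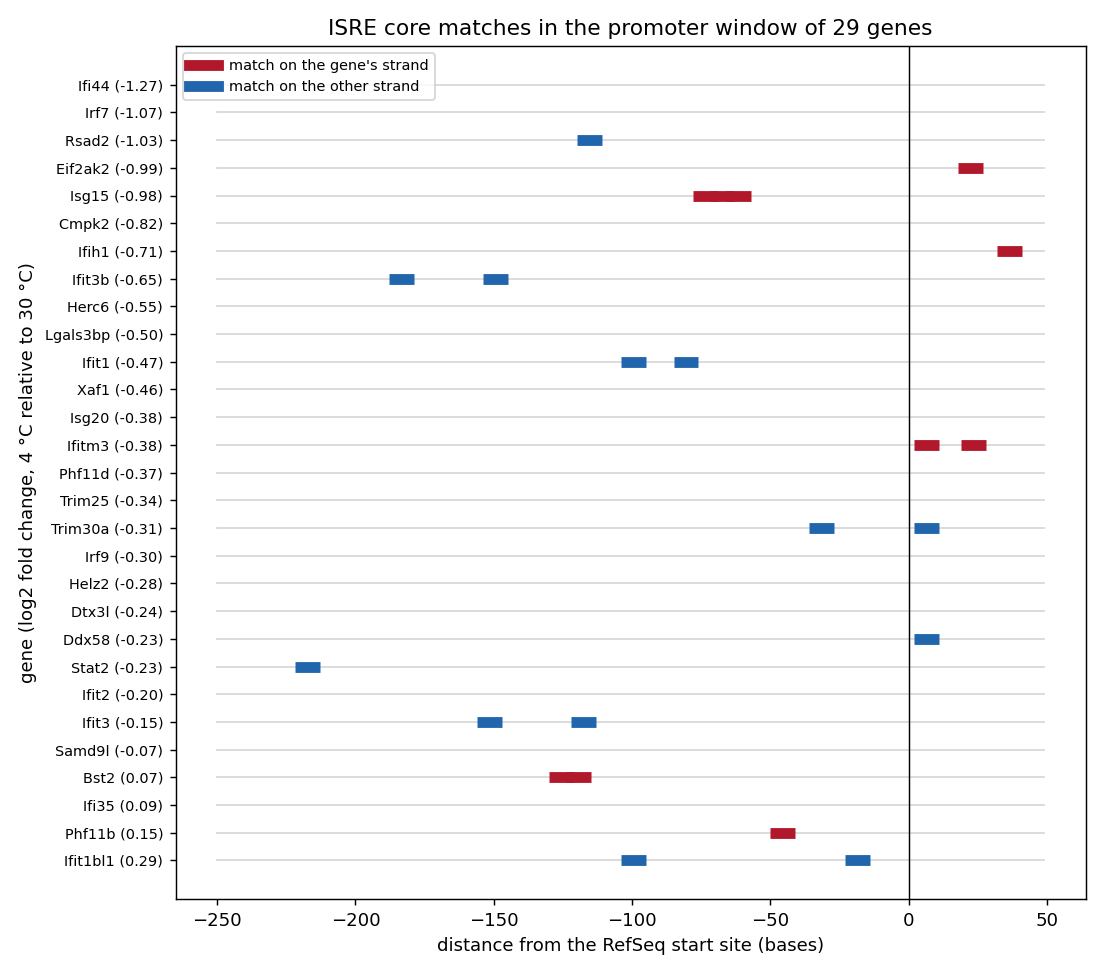
Matches to the ISRE core in the promoter windows of 29 genes, by distance in bases from the RefSeq start site (x axis), with genes ordered by log2 fold change (y axis, value in brackets). Red marks a match on the strand of the gene and blue on the other strand; 14 genes hold a match, from Rsad2 near the top to Ifit1bl1 at the bottom.

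Depth ran from 16191708 to 20320525 counts per library, summed over named genes. Pancreatic acinar transcripts stood apart in 30 °C replicate 2, with 365421 CPM summed over 24 genes, against 19.3 to 2569 in the other libraries, and TMM scaling multiplied the depth of this library by 0.738. The 10 epithelial markers, which would mark a carcinoma, reached only 18.0 to 175 CPM in sum. Krt19 had 0 CPM in 30 °C replicate 3 and 4 °C replicate 1. By contrast, the 10 B cell markers reached 1341 to 4027 CPM. The 3 transcription factors of the splenic mesenchyme summed to 32.5 to 61.2 CPM, within the range of the epithelial sum. The 10 erythroblast markers summed to 3105 to 6191 CPM. The word tumour in this text follows the study, since with so little epithelial signal the libraries may hold little carcinoma. Their tissue content was not tested. In bulk tissue, fewer cells of a type and less RNA per cell cannot be told apart.

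The 39 interferon-stimulated genes, chosen with this contrast known, were on the whole lower in the 4 °C libraries. Of the 39 genes, 34 had a negative log2 fold change (4 °C relative to 30 °C), against 49.3% of all genes tested, and their median was −0.36, against 0.0064 over all genes. Ifi44, Irf7, Rsad2, Eif2ak2 and Isg15 stood at the lower end, between −1.27 and −0.98. A fold change below −0.5 was seen in 12 of the 39 genes, against 12.3% of all genes. The 50 further interferon-stimulated genes described below had a median of −0.11, with 32 lower and 18 higher. All 39 passed the filter on low counts, and counts of single genes ran from 76 to 7349 per library. Counting alone gave 95% Wilson intervals that reached at most 8.77% to either side for values of at least 500 counts and 22.6% for the lowest value, and no molecular identifiers are named, so PCR copies may make these too narrow.

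Summed over the 39 genes, the level was 3815, 4209 and 3519 CPM in 30 °C replicates 1, 2 and 3, and 3001 and 2659 CPM in 4 °C replicates 1 and 2. Both tumours at 4 °C lay below all 3 at 30 °C. As a plain share of all counts, without TMM scaling, the genes made up 0.410% (95% Wilson interval 0.407% to 0.413%), 0.310% (0.307% to 0.313%) and 0.397% (0.394% to 0.399%) of the 30 °C libraries. The shares at 4 °C were 0.324% (0.322% to 0.327%) and 0.274% (0.272% to 0.277%), so that 30 °C replicate 2, the library rich in acinar transcripts, fell below 4 °C replicate 1 on this scale.

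In 13 of the 39 genes both tumours at 4 °C lay below all 3 at 30 °C, and in none did both lie above. Over all genes tested, 11.0% had groups apart in the lower direction and 12.2% in the higher direction. The 13 genes were Herc6, Ifih1, Dhx58, Irf7, Irf9, Cmpk2, Rtp4, Parp9, Ifi44, Ifi27l2a, Xaf1, Lgals3bp and Phf11d. This number was 7 with plain CPM, where the share of all genes with groups apart in either direction was 16.4%. Without 30 °C replicate 1 it was 20. Without 4 °C replicate 1, 29 genes had groups apart, 27 of them lower. In these fits 39% and 58.5% of all genes had groups apart in either direction, since fewer libraries come apart more easily. Across all 16133 genes, edgeR's quasi-likelihood test with Benjamini-Hochberg adjustment called 0 genes (0%), so no member was called either. At an unadjusted p under 0.05 it listed 1090 genes (6.76%), 673 of them lower (4.17%) and 417 higher (2.58%), and the Wald test of DESeq2 called 118 at an adjusted p under 0.05.

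**Figure D2:**
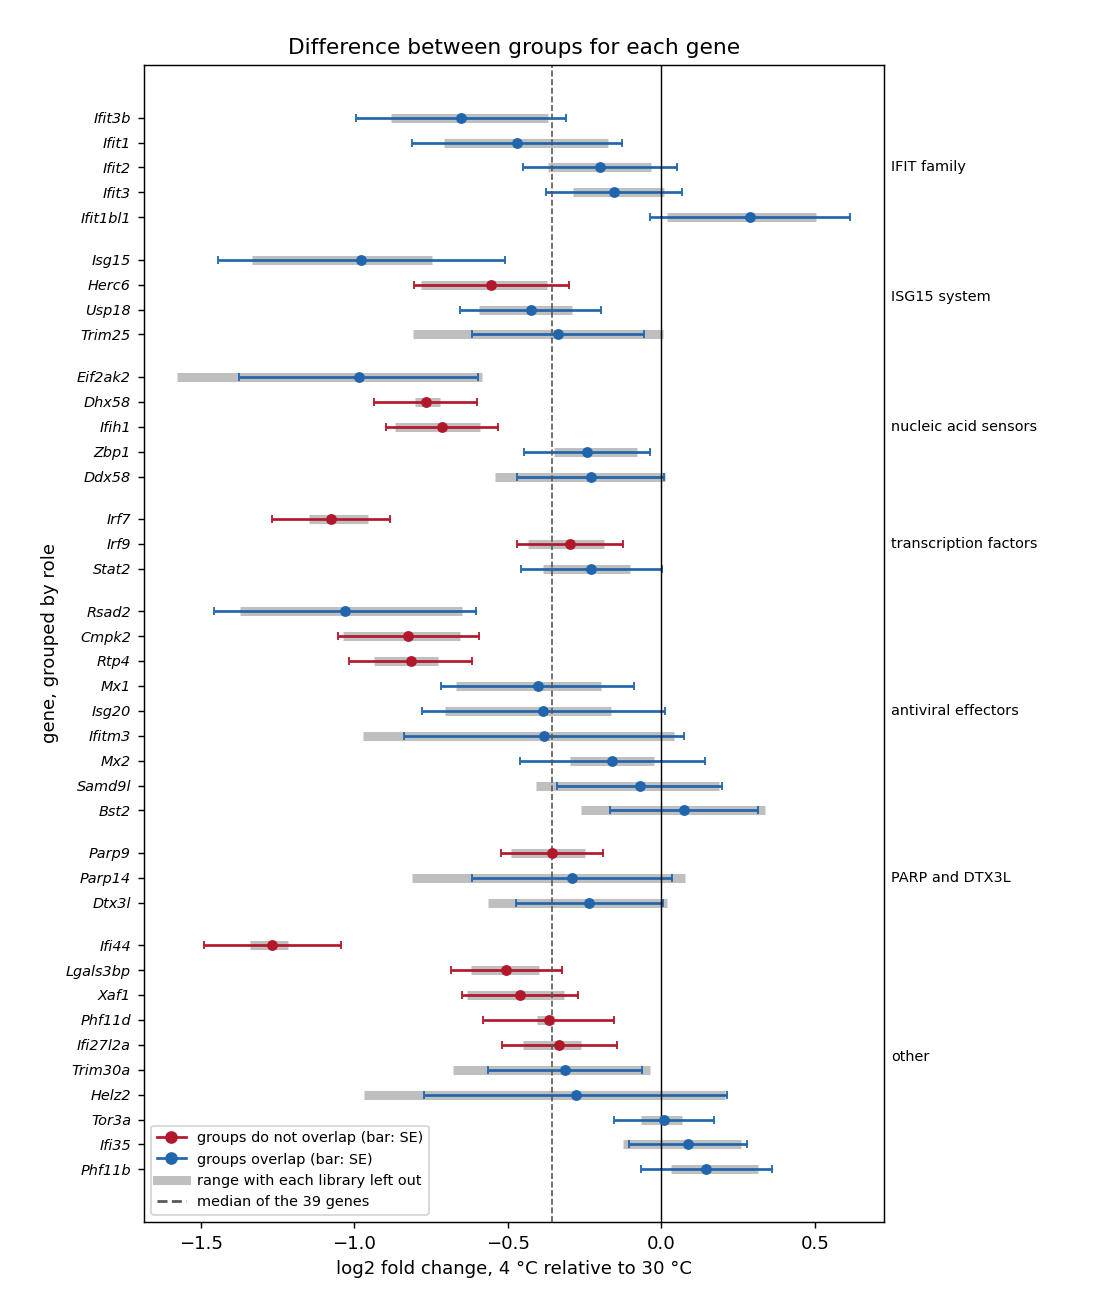
Log2 fold change of each of the 39 genes, 4 °C relative to 30 °C (x axis), grouped by role (y axis), with the standard error as a thin bar and the range with each library left out as a grey band. Red points mark the 13 genes whose groups do not overlap; the dashed line is the median of the 39 genes at −0.36, and 34 points lie left of 0.

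Among the transcription factors of the pathway, Irf7 differed most. It encodes the factor that drives the genes of type I interferons and is itself induced by interferon. Irf7, on chromosome 7 from 141262706 to 141266481, had 190, 241 and 184 CPM in 30 °C replicates 1 to 3 and 100.3 and 94.5 CPM at 4 °C. The lowest tumour at 30 °C was thus well above the higher tumour at 4 °C, and the log2 fold change was −1.07 (standard error 0.19). With each library left out in turn it kept its sign. Irf9, the DNA-binding subunit of the ISRE factor, had 109, 103 and 117 CPM at 30 °C and 97.6 and 81.3 CPM at 4 °C, which puts the groups apart by a small margin (−0.30, standard error 0.17). For its partner Stat2, with 59.9, 83.0 and 89.6 CPM against 72.8 and 59.5 CPM, the groups overlapped (−0.23, standard error 0.23).

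The ISG15 system attaches a small ubiquitin-like protein to other proteins. Isg15 itself, on chromosome 4 from 156199424 to 156200818, had 280 and 296 CPM in 30 °C replicates 1 and 2 but 99.2 CPM in replicate 3, and 109 and 120 CPM at 4 °C. The 30 °C group was split, and replicate 3 was lower than both at 4 °C. The log2 fold change of −0.98 has a standard error of 0.47. Herc6, the main ligase for ISG15 in the mouse, had 31.6 to 47.7 CPM at 30 °C and 22.3 to 30.0 CPM at 4 °C (−0.55, standard error 0.25). Gm45193, on the same strand, shares 13.7% of the exon length of Herc6. Usp18, which removes ISG15 and restrains the interferon receptor, had a log2 fold change of −0.43 (standard error 0.23) with groups that overlapped. Trim25, a ubiquitin ligase that acts on RIG-I, had 117, 129 and 153 CPM at 30 °C and 135 and 75.9 CPM at 4 °C. Its log2 fold change of −0.34 (standard error 0.28) rested on 4 °C replicate 2 and was 0.0043 without it.

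The sensors of nucleic acid were all lower in mean at 4 °C, but not to the same extent. Dhx58 (LGP2), a regulator of the other RNA helicases of this family, had 45.1, 50.02 and 44.0 CPM at 30 °C and 27.4 and 27.1 CPM at 4 °C. Replicates within each group lay close together, and the log2 fold change was −0.77 (standard error 0.17). Ifih1 (MDA5), a sensor of long double-stranded RNA, had 52.3 to 59.2 CPM at 30 °C and 30.0 to 36.7 CPM at 4 °C (−0.71, standard error 0.18). Ddx58 (RIG-I), the sensor of RNA with a free 5′ triphosphate, had 71.3, 83.8 and 96.8 CPM at 30 °C and 85.4 and 57.6 CPM at 4 °C. These groups overlapped, and the log2 fold change of −0.23 (standard error 0.24) was 0.011 without 4 °C replicate 2. Eif2ak2 (PKR), a kinase that halts translation upon binding double-stranded RNA, had 41.5, 77.3 and 68.6 CPM at 30 °C and 42.1 and 20.9 CPM at 4 °C. Its log2 fold change of −0.99 (standard error 0.39) was −1.58 without 4 °C replicate 1 and −0.58 without 4 °C replicate 2. Zbp1, a sensor of Z-form nucleic acid, had 55.4 to 78.0 CPM at 30 °C and 52.0 to 56.6 CPM at 4 °C (−0.24, standard error 0.21).

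Of the 9 genes of direct antiviral effectors, 8 were lower in mean at 4 °C, with a median log2 fold change of −0.38. Rsad2 (viperin), an enzyme that makes a chain-terminating nucleotide, was the most abundant in CPM, with 341, 523 and 198 CPM at 30 °C and 210.5 and 136 CPM at 4 °C. As with Isg15, 30 °C replicate 3 stood at the level of the cold group, and the log2 fold change of Rsad2 was −1.03 (standard error 0.43). Cmpk2, a mitochondrial nucleotide kinase, starts 12752 bases from Rsad2 on chromosome 12 in the opposite direction. It had 84.1, 102 and 71.9 CPM at 30 °C and 55.3 and 41.9 CPM at 4 °C, with groups apart (−0.82, standard error 0.23). Rtp4, a chaperone of receptors that also restricts some RNA viruses, had 52.9 to 70.3 CPM at 30 °C and 34.0 to 38.6 CPM at 4 °C (−0.82, standard error 0.20). Gm45338, on the same strand, shares 13.9% of the exon length of Rtp4.

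The remaining effectors showed no separation of the groups. Isg20, an exonuclease, had 229, 249 and 96.8 CPM at 30 °C and 142 and 151 CPM at 4 °C, again with 30 °C replicate 3 lowest (−0.38, standard error 0.40). Ifitm3, a membrane protein that hinders viral fusion, had 391, 232 and 155 CPM at 30 °C and 134 and 265 CPM at 4 °C. Its log2 fold change of −0.38 (standard error 0.46) was 0.041 at the upper end of the fits and changed sign without 30 °C replicate 1 or without 4 °C replicate 1. Mx1 and Mx2, GTPases that are defective in most inbred strains including C57BL/6, were low, at 9.88 to 19.96 and 4.28 to 6.24 CPM over the 5 libraries. Samd9l, a restriction factor, had 80.2, 118 and 116 CPM at 30 °C and 121 and 78.9 CPM at 4 °C (−0.071, standard error 0.27), and its sign changed under several settings. Bst2 (tetherin), which holds budding virus at the cell surface, had 142, 124 and 103 CPM against 104 and 155 CPM. It was the only effector with a positive log2 fold change (0.074, standard error 0.24), which turned negative without 4 °C replicate 2 or 30 °C replicate 3 and with the replicate block.

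The IFIT proteins bind foreign RNA, and their genes form a cluster on chromosome 19, where the 5 start sites lie within 90177 bases. Ifit3b had 8.94, 18.6 and 13.2 CPM at 30 °C and 9.001 and 8.27 CPM at 4 °C (−0.65, standard error 0.34). For Ifit3 these values were 39.9, 60.5 and 47.7 CPM and 42.0 and 46.6 CPM (−0.15, standard error 0.22), and the sign changed without 30 °C replicate 2. In both genes 30 °C replicate 2 was the highest library. Of all windows of 100 bases in the transcripts, 31.7% of those of Ifit3 and 27.4% of those of Ifit3b occur in the other gene, and how the counting treated such reads is not given, so their split is uncertain. Ifit1 and Ifit2 had log2 fold changes of −0.47 (standard error 0.34) and −0.20 (standard error 0.25), which were −0.17 and −0.035 without 30 °C replicate 2. Ifit1bl1 went the other way, with 11.3, 20.5 and 21.05 CPM at 30 °C and 25.2 and 17.8 CPM at 4 °C (0.29, standard error 0.33). In none of the 5 genes of this cluster were the groups apart, against 23.3% of all genes tested in either direction. With 5 genes, a count of 0 says little beside that share.

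Parp9, Dtx3l and Parp14 start within 67607 bases of one another on chromosome 16 and encode ADP-ribosyltransferases and the ubiquitin ligase that pairs with PARP9. Parp9 had 88.4, 89.2 and 91.4 CPM at 30 °C and 76.3 and 63.8 CPM at 4 °C. The 30 °C tumours were nearly equal, and the log2 fold change was −0.36 (standard error 0.17). Dtx3l had 84.0, 84.8 and 107 CPM against 94.2 and 62.3 CPM (−0.24, standard error 0.24), and Parp14 had 111, 153 and 176 CPM against 156 and 83.5 CPM (−0.29, standard error 0.32). In both, 4 °C replicate 1 stood among the 30 °C tumours, and the sign changed without 4 °C replicate 2. Parp9 and Dtx3l overlap by 682 bases on opposite strands, and whether the counting used strand is not given.

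Among the other interferon-stimulated genes, Ifi44 showed the largest difference of all 39. Ifi44, on chromosome 3 from 151730922 to 151749960, had 15.4, 15.9 and 13.4 CPM at 30 °C and 5.97 and 6.41 CPM at 4 °C, a 2.41-fold higher mean at 30 °C (log2 fold change −1.27, standard error 0.22). Its counts were 107 to 306 per library. Lgals3bp, a secreted glycoprotein that binds galectins, had 220.5 to 271 CPM at 30 °C and 156 to 179 CPM at 4 °C (−0.50, standard error 0.18). Xaf1, a gene linked to apoptosis, had 31.8 to 36.6 and 21.9 to 26.9 CPM (−0.46, standard error 0.19). Ifi27l2a, a small membrane protein, had 193, 251 and 256 CPM at 30 °C and 182 and 189 CPM at 4 °C, so that the groups were apart by a narrow margin (−0.33, standard error 0.19). Phf11d, a zinc finger protein gene, had 10.5 to 11.2 and 8.27 to 8.65 CPM (−0.37, standard error 0.21).

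In the rest of this set the groups overlapped. Helz2, a nuclear receptor coactivator with helicase domains, had 117, 143 and 287 CPM at 30 °C and 208 and 93.2 CPM at 4 °C, the widest range of this set (−0.28, standard error 0.49), and its sign changed without 4 °C replicate 2 or 30 °C replicate 3 and with the replicate block. Trim30a had a log2 fold change of −0.31 (standard error 0.25), which was −0.037 without 4 °C replicate 2. Tor3a, a relative of torsin, had 71.7, 74.0 and 81.8 CPM against 80.2 and 72.4 CPM, a log2 fold change of 0.0089 (standard error 0.16) whose sign changed with RLE scaling and without 30 °C replicate 1, among others. Ifi35 had 68.7, 63.8 and 56.2 CPM against 58.3 and 75.2 CPM (0.085, standard error 0.19), negative without 4 °C replicate 2 and with the replicate block. Phf11b had 32.1, 36.2 and 46.9 CPM against 44.4 and 40.6 CPM (0.15, standard error 0.21). Of the windows of 100 bases of Phf11b, 13.8% occur in Phf11a, Phf11c, Phf11d or Gm6904, and 16.8% of the exon length of Ifi35 overlaps a gene on the other strand.

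**Figure D3:**
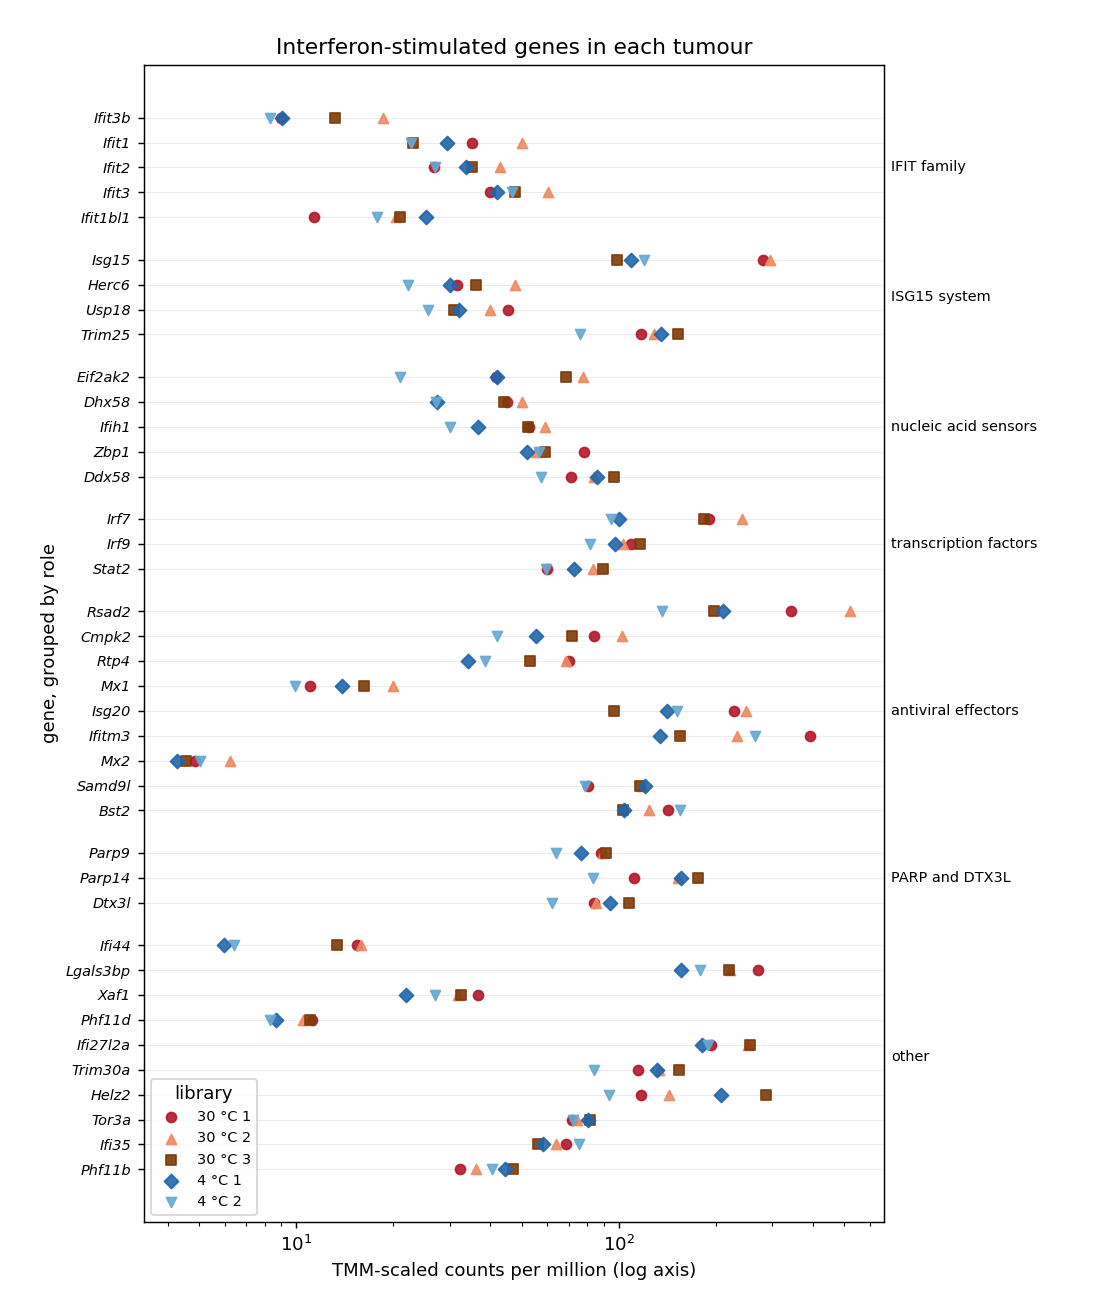
TMM-scaled CPM of the 39 genes in each of the 5 libraries (x axis, log scale), grouped by role (y axis), with 1 symbol per library. For Irf7, Ifi44 and Dhx58 the 2 blue symbols of 4 °C lie left of all 3 symbols of 30 °C, whereas for Isg15, Rsad2 and Isg20 the brown square of 30 °C replicate 3 lies among or left of the blue symbols.

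The 3 tumours at 30 °C did not carry the same profile. 30 °C replicate 2 was the highest of all 5 libraries in 16 of the 39 genes, replicate 3 in 12 and replicate 1 in 7, whereas over all genes tested each of these was the highest in 18.1% to 19.5%. Without TMM scaling the highest library was 30 °C replicate 3 in 23 genes and replicate 2 in 1, so this order depends on the scaling. 4 °C replicate 2 was the lowest library in 22 genes (24.9% of all genes), and in 18 with plain CPM. 30 °C replicate 2 was above both tumours at 4 °C in 26 genes (31.8% of all genes). 30 °C replicate 3 was above both in 28 genes (32.6% of all genes), and the 11 exceptions included Isg15, Rsad2, Isg20, Ifitm3, Usp18 and Ifit1. By contrast, 30 °C replicate 1 was above both in 20 genes (31.1% of all genes), and its 19 exceptions included Helz2, Parp14, Trim25, Ddx58, Stat2, Samd9l and Trim30a. The heat map of levels relative to the mean of each gene shows these groups of genes side by side.

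**Figure D4:**
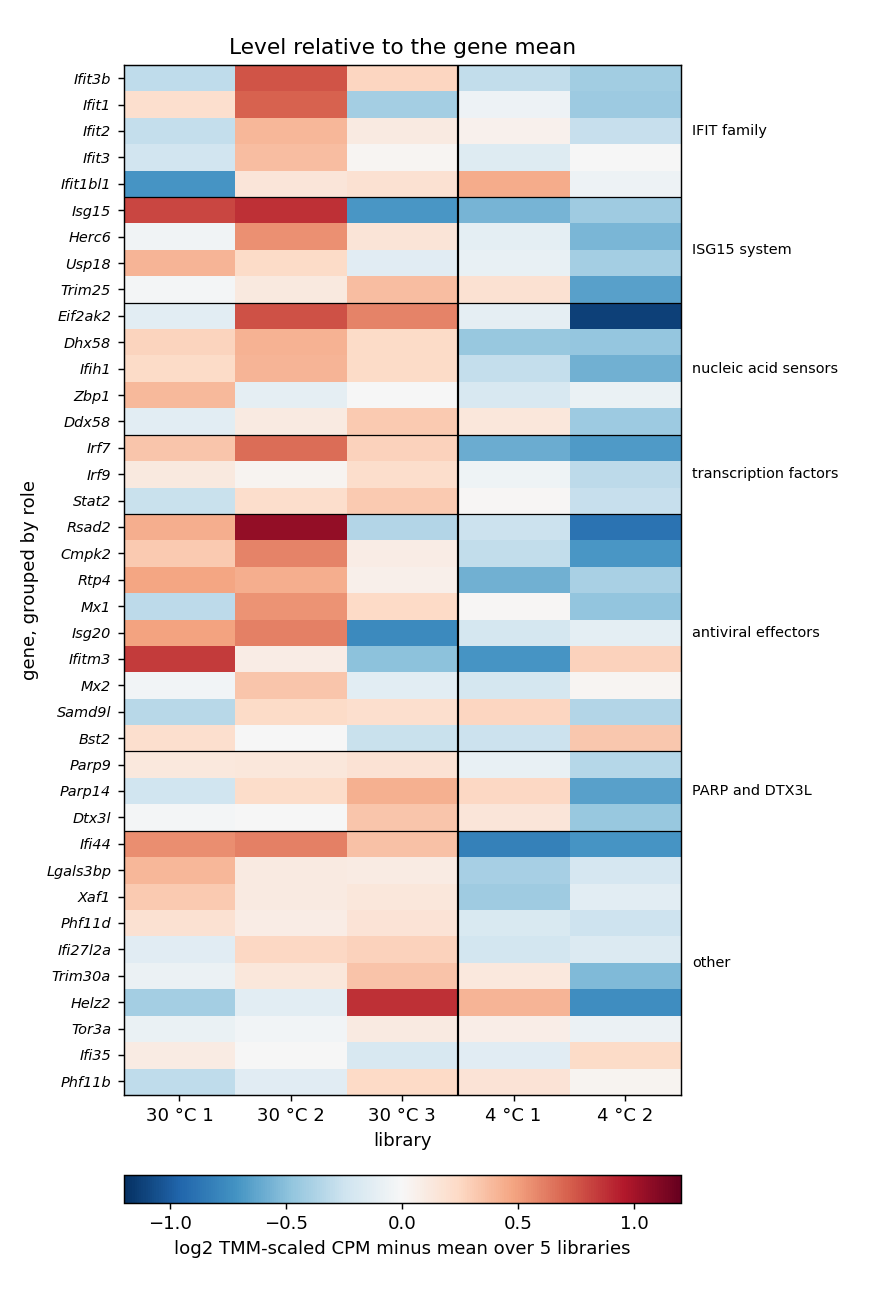
Level of each gene relative to its own mean over the 5 libraries (colour, log2 TMM-scaled CPM), with genes grouped by role and libraries as columns. 4 °C replicate 2 is blue in most rows, Isg15, Rsad2 and Isg20 are red in 30 °C replicates 1 and 2 only, and Helz2 is reddest in 30 °C replicate 3.

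Markers of other cells also moved across these libraries. The neutrophil list, all 10 of whose genes had more than 3 counts in every library, summed to 11877, 8074 and 2968 CPM at 30 °C and 2446 and 3897 CPM at 4 °C, and all 10 genes had a lower mean at 4 °C. As for Isg15, 30 °C replicate 3 stood beside the cold group. The erythroblast list, with 9 of 10 genes lower in mean at 4 °C, summed to 5596, 6191 and 3105 CPM and to 3260 and 3249 CPM. The T cell list summed to 331 to 556 CPM at 30 °C and 731 to 764 CPM at 4 °C, and the B cell list to 1341 to 3570 and 3389 to 4027 CPM, with every gene of both higher in mean at 4 °C. The monocyte and macrophage list summed to 1536 to 1829 and 1617 to 1850 CPM, and 6 of its 10 genes were lower in mean at 4 °C. Its monocyte genes Ly6c2 (160 to 260.2 against 113 to 143 CPM) and Ccr2 (41.2 to 88.5 against 30.3 to 36.5 CPM) were lower in both tumours at 4 °C than in all at 30 °C. The list for plasmacytoid dendritic cells, the main makers of type I interferon, stood at 296 to 552 and 597 to 612 CPM without Klk1, a gene that reached 3161 CPM in the acinar-rich library. Without Ly6d as well, which B cell precursors also express, its sums overlapped, at 154 to 221 and 167 to 208 CPM, and both genes were left out after their values were seen. NK cell markers summed to 67.4 to 176 and 118 to 123 CPM, and fibroblast markers to 475 to 1086 and 538 to 1232 CPM. In 30 °C replicate 3, whose neutrophil sum lay between those of the tumours at 4 °C, 28 of the 39 genes were above both tumours at 4 °C (32.6% of all genes). Irf7 (184 CPM), Ifi44 (13.4), Dhx58 (44.0) and Ifih1 (52.3) were among them, as are all genes with groups apart by definition. Isg15, Rsad2, Isg20, Ifitm3, Usp18 and Ifit1 were not. The part of these cells in the differences was not tested.

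**Figure D5:**
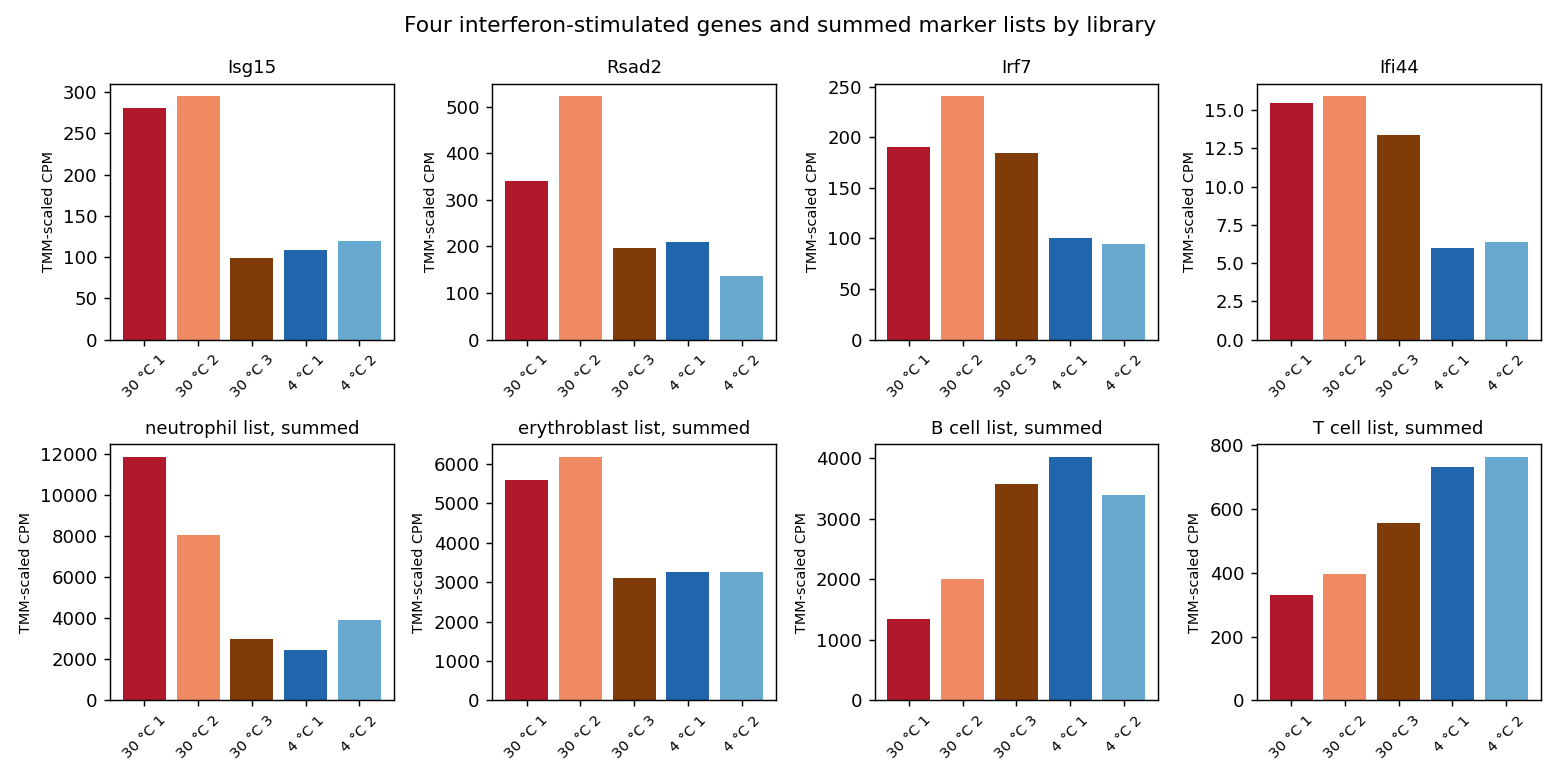
TMM-scaled CPM of 4 interferon-stimulated genes (top) and summed marker lists (bottom) in each library (x axis), as bars from 0. Isg15 (99.2 CPM) and the neutrophil list (2968 CPM) are at the level of the 4 °C tumours in 30 °C replicate 3. Irf7 (184 CPM) and Ifi44 (13.4 CPM), both from the genes with groups apart, are above them.

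Other genes of the pathway were read from a list of 109 genes that holds none of the 39. Of these, 107 were in the table and 87 passed the filter. By edgeR's quasi-likelihood test 0 were called in either direction (smallest adjusted p = 0.69), as were 0 of all 16133 genes tested. At an unadjusted p under 0.05, 1 was higher and 5 lower, which is 6.9% of the 87 and close to the 6.76% of all genes. Of the 87, 45 were lower and 42 higher at 4 °C, with a median log2 fold change of −0.022. Among the 20 genes that encode interferons, 16 had 0 counts in all 5 libraries, Ifnb1 and every Ifna gene among them, and a count of 0 allows up to 0.131 to 0.246 CPM for counting error only. All 37 mitochondrial genes of the table, which every cell uses, were also at 0 in every library, so that a 0 in this table need not mean a low level. How reads shared by near-identical copies were counted is not given, which bears on the Ifna genes. Ifng, the type II interferon, had 13 to 22 counts per library (0.20, standard error 0.40, adjusted p = 0.94 by edgeR).

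None of the 6 receptor genes and 5 genes of the kinases and STAT factors was called by edgeR, which called 0 of all 16133 genes tested. The absence of a call is therefore no result about these genes. Ifnar1 and Ifnar2, the chains of the type I receptor, had log2 fold changes of 0.10 (standard error 0.20) and −0.092 (standard error 0.21), and the kinases Jak1 and Tyk2 0.048 (standard error 0.28) and −0.068 (standard error 0.24). The 5 genes of the list with the smallest p were Ifi207, Parp12, Ifi204, Ifnlr1 and Irf3. Ifi204, a cytosolic DNA sensor, had 37.7 to 54.5 CPM at 30 °C and 27.1 to 30.8 CPM at 4 °C (−0.71, standard error 0.22, adjusted p = 0.69 by edgeR). Its relative Ifi207 had 30.9 to 43.1 and 21.1 to 23.4 CPM (−0.71, standard error 0.21, adjusted p = 0.69). Parp12, an ADP-ribosyltransferase, had a log2 fold change of −0.66 (standard error 0.20), and Ifnlr1, a chain of the type III receptor, of −0.99 (standard error 0.34) at 1.92 to 4.74 CPM. Irf3, the constitutive factor of interferon induction, stood higher at 4 °C, at 68.8 and 88.6 CPM against 52.4 to 57.3 CPM (0.51, standard error 0.18, adjusted p = 0.71 by edgeR). All 5 of the further IRF genes had a positive log2 fold change, with a median of 0.41. Of the 50 further interferon-stimulated genes of the list that were tested, 32 were lower and 18 higher, with a median of −0.11. Groups were apart in 9 in the lower direction (11.0% of all genes) and in 4 in the higher direction (12.2% of all genes).

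Levels were compared between genes per kilobase of exon. Over the 5 libraries the highest means were those of Ifi27l2a (463 CPM per kb), Ifitm3 (347), Isg15 (239) and Bst2 (139), and the lowest those of Mx2 (1.38 CPM per kb) and Ifi44 (1.86). The gene with the largest difference between the groups was therefore among the least abundant of the 39, while Irf7, at 42.9 CPM per kb, ranked 8th. The genes lie on 14 chromosomes.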

How the data were processed

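RNA-seq was carried out on 3 tumours kept at 30 °C and 2 kept at 4 °C. Per the labels, the submitters' processing notes name fastp, HISAT, RSEM and GRCm38. The study's methods name featureCounts. The deposited values are whole-number counts per gene symbol. The strand setting and the treatment of multi-mapping reads are not given in the sources used here. Rows without a gene name (0.0101% to 0.017% of counts) were left out. Counts were filtered with filterByExpr, scaled by TMM and tested with edgeR 4.0.16 (quasi-likelihood test, robust, Benjamini-Hochberg adjustment, threshold 0.05). On simulated counts with 200 genes changed by a log2 fold change of 2 in either direction, the test recovered 67% of them. The simulation gave every library the same profile and a spread that depended on level only. It held neither the acinar excess of 30 °C replicate 2 nor a spread particular to each gene, so recovery in these data may be lower. Smaller changes were not simulated. Standard errors are the log2 fold change divided by the square root of F. The study's tool, DESeq2 1.42.0, was an alternative, as were other scalings, filters, a replicate block and leaving out each library. Positions and exon lengths came from GENCODE M21 (GRCm38), promoters from RefSeq (GRCm38.p6). The members and all lists were chosen with earlier results of these data known. Values in every library are printed, for each role, for the genes with the largest and the smallest absolute fold change, the highest mean CPM and a direction opposite to most of the role. Dhx58, Irf9, Cmpk2, Isg20, Ifitm3 and Helz2 were added after their values were seen. Of the pathway list, the 5 genes with the smallest p were named, with Ifnb1, Ifng, Ifnar1, Ifnar2, Jak1 and Tyk2; a further gene fixed for naming is not reported here.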

Additional observations from a re-analysis of the deposited data

How the results depend on the processing

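Of the 39 interferon-stimulated genes, 28 kept the sign of their log2 fold change under all 14 alternatives and 11 changed it under at least 1. The number lower at 4 °C was 30 to 35 throughout. The median of −0.36 was −0.23 with plain CPM, where the median of all genes moved to 0.11, and ran from −0.54 (without 4 °C replicate 1) to −0.30 with each library left out. Genes with groups apart numbered 13 (23.3% of all genes), but 7 with plain CPM (16.4%) and 15 to 29 with a library left out (29% to 58.5%). Across all 16133 genes, edgeR called 0, against 118 with DESeq2, 8 with plain CPM and 44 with the replicate block. No pathway gene was called under any of them, which with so few calls says little about the 87 tested. With plain CPM 37.3% of all genes were lower, against 49.3%. The labels name no pairing of the samples by replicate number. Correlations of deviations (−0.255 and 0.259) cannot decide it, since only 2 pairs can be formed. Under the block 34 members were lower with a median of −0.34. Leaving out a 4 °C library leaves 1, which is assumed to vary like the others. The causes were not tested. Mx2 had the lowest count of the 39 genes in a library, 76.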

Other observations

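The ISRE core was also searched in the promoters of the other pathway genes, and 22 of 73 genes tested with a promoter entry (30.1%) held a match, against 459 of 11443 genes tested (4.01%). A match describes the letters of a window.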
